A study of Mus musculus with 12 samples.

Results

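Whether tumour necrosis factor alpha (TNFa) and bone morphogenetic protein 4 (BMP4), given together, act on each gene as the sum of their separate effects was examined in MC3T3-E1 cells, an established clonal line of mouse calvarial osteoblast precursors. The measure, called the interaction here, was computed per gene on the log2 scale as the TNFa effect in the presence of BMP4 minus the TNFa effect in its absence. A value of 0 means that the combined effect equals the sum of the single effects, a value below 0 that it fell short of that sum, and a value above 0 that it exceeded it. All genes with a mean deposited log2 value of at least 6 were taken, which were 10360 of 25124 entries; another 7341 lay below that minimum and 7423 were at 0 in every library. The genes just inside the minimum were Rsl1, 2700038G22Rik and Megf6 (mean log2 6.00035, 6.00177 and 6.00204), and those just outside were Acsm3, Slc25a14 and Pyroxd2 (5.99876, 5.99772 and 5.99665).

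The 12 polyA RNA libraries formed 4 groups of 3: untreated cells, cells given TNFa at 10 ng/mL, cells given BMP4 at 10 ng/mL, and cells given TNFa and then BMP4 at those doses. All 4 groups, the untreated one included, spent 30 min in medium with 2.5% serum first. By the protocol TNFa was added 30 min before BMP4, and BMP4 acted for 3 h; the characteristics list 3 h for each factor, so how long TNFa acted is uncertain. Libraries given TNFa alone have p65 in their titles, with no explanation. The genotype field repeats the treatment, and no altered allele is named for any group. Batch 1, as the labels number it, held replicate 1 of each group and batch 2 held replicates 2 and 3. The labels do not say whether replicates are separate cultures. The p-values thus rest on a spread between libraries that may be technical. Tag totals ran from 13.7 to 15.5 M per library apart from 20.6 M in TNFa+BMP4 replicate 2. Of 11 osteoblast markers 7 had a mean log2 of at least 6, among them the transcription factor Runx2 (10.3) and the collagen Col1a1 (17.3). The osteoblast transcription factor Sp7 (5.29) lay below the minimum, and Alpl (0.35), Bglap (-0.03) and Ibsp (-1.23) were near or below 0. None of 6 leukocyte, 3 endothelial and 4 muscle markers reached the minimum, and of 4 adipocyte markers Cebpa (7.34) did.

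TNFa binds its receptor and frees NF-kB, a family of transcription factors held in the cytoplasm by IkB proteins, which then switches on chemokines, its own inhibitors and genes that are also targets of interferon. BMP4 binds serine/threonine kinase receptors that phosphorylate Smad1 and Smad5, which enter the nucleus with Smad4 and switch on the Id genes and the inhibitory Smads, Smad6 and Smad7. In osteoblast precursors BMP signals favour bone formation and TNFa is known to restrain it, so a gene that receives both inputs can respond in a way that neither input alone predicts. The series concerns how Smad4 and p65, the NF-kB subunit encoded by Rela, work together.

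The interferon-inducible GTPases had the family median furthest from additivity, and Nfkbie was the gene called below it. The 250 bases before their RefSeq starts (mm10, GRCm38.p6) are therefore shown, read along the transcribed strand. Capitals mark matches, on either strand, to the motifs searched.
Gbp2: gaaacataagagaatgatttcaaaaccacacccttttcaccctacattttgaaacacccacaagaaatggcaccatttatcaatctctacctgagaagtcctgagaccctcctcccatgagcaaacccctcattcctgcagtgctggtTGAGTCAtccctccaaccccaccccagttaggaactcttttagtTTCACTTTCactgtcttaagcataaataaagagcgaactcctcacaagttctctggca
Gbp7: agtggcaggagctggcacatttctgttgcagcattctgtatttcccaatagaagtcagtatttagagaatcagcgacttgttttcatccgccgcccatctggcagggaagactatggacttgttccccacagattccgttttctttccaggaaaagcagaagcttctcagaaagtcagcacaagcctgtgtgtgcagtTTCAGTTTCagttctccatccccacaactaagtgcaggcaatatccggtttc
Igtp: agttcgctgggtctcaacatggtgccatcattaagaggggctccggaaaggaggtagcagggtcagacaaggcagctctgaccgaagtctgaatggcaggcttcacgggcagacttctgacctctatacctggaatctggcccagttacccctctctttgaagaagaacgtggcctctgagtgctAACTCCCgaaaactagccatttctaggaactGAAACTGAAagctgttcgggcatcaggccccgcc
Irgm2: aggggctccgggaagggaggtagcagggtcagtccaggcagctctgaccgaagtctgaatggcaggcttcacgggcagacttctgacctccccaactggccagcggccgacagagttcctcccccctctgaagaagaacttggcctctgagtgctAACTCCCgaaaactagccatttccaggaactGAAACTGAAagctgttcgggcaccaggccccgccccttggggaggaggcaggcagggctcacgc
Irgm1: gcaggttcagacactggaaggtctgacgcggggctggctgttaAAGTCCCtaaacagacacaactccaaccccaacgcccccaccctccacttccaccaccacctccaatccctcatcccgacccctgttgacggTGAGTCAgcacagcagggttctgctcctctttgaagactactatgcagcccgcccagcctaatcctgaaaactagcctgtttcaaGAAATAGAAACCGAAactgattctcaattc
Nfkbie: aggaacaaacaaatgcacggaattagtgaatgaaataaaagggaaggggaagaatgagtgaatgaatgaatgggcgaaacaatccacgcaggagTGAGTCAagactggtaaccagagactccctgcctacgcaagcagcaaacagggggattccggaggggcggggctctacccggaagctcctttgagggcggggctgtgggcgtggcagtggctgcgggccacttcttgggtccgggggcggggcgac
These windows are chr3:142620413-142620662 on the + strand for Gbp2, chr3:142530086-142530335 on the + strand for Gbp7, chr11:58199306-58199555 on the + strand for Igtp, chr11:58214727-58214976 on the + strand for Irgm2, chr11:48871421-48871670 on the - strand for Irgm1 and chr17:45555450-45555699 on the + strand for Nfkbie. The letters searched were TTCNNTTTC, the core of the interferon response element, GGGANTT for the kappaB core, TGANTCA for AP-1, TGACGT for the core of the cyclic AMP element, GGCGCC for a Smad element and CACGTG for the E-box. The interferon core was added after values had been seen. The AP-1, Smad and E-box letters read the same on both strands, and no motif is a part of another.

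The interferon response core stood in all 5 of the GTPase promoters that could be matched, at 58 bases before the start in Gbp2, 52 in Gbp7, 34 in Igtp, 64 in Irgm2 and, in 2 copies, at 30 and 24 in Irgm1. Over all 8024 promoters of tested genes that matched within 100 bases of the deposited start, 481 or 5.99% held it. The Igtp and Irgm2 windows, which belong to neighbouring genes, shared a run of 55 identical bases, so they are not independent examples. In the Nfkbie window the only match to the letters searched was TGAGTCA at 156 bases before the start. The window also holds gggggattcc, which misses the kappaB letters at their last base. The lack of a match to those letters therefore does not show that the window has no kappaB site. Within the NF-kB list 10 of 15 matched promoters held the kappaB core, beside 15.6% of all, as did 3 of the 5 GTPase promoters, and 2 of those 5 held the AP-1 letters, beside 3.51% of all. The interferon core stood in 4 of 15 promoters of the class I antigen presentation list but in 2 of 15 of the antiviral interferon-stimulated list, the same count as in the NF-kB list. A match is a description of these letters and not evidence that a factor was bound.

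For most genes the estimated interaction was close to 0 on the log2 scale. The median interaction over the 10360 genes was -0.0043, the 5th and 95th percentiles were -0.166 and 0.169, and 97.5% of genes lay within 0.25 of 0. The 95% confidence interval stayed within 0.5 of 0 for 10055 genes (97.1%). With limma and Benjamini-Hochberg adjustment over all tested genes, 1 gene was called above additivity (0.00965% of those tested) and 1 below it (0.00965%). These were Pdgfb and Nfkbie. At an unadjusted p under 0.05 there were 184 genes above (1.78%) and 233 below (2.25%). Together these 417 genes were fewer than a threshold of 0.05 gives on average when no gene has an interaction. Estimates above 0 made up 47.8% of the genes and estimates below 0 made up 52.2%; 24.0% were above 0 in both batches and 27.6% below 0 in both. The median standard error was 0.0974, falling from 0.122 for genes with a mean log2 of 6 to 8 to 0.074 for those at 10 and above.

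Each factor alone changed a minority of the genes, and a gene that responds to neither has no effects to add, so the values near 0 are in part those of genes without a single response. TNFa without BMP4 raised 1005 genes (9.7%) and lowered 772 (7.45%), and TNFa with BMP4 raised 957 (9.24%) and lowered 796 (7.68%). BMP4 without TNFa raised 761 genes (7.35%) and lowered 702 (6.78%), and BMP4 with TNFa raised 594 (5.73%) and lowered 665 (6.42%). Both factors against none raised 1800 (17.4%) and lowered 1681 (16.2%). These contrasts share libraries with each other and with the interaction, so they are given side by side for the members and are not compared as lists.

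Before any correction the interaction followed transcript length. In 10 equal bins of genes by length, from the shortest (median length 936 bases) to the longest (7895.5 bases), its median went from 0.0548 to -0.0731. The trend was present in both batches and was larger in batch 1, from 0.114 to -0.146, than in batch 2, from 0.0255 to -0.0325. Among the libraries, BMP4 replicate 1 had the steepest dependence on length, 0.0865 log2 units per doubling of length, while the other batch 1 libraries lay between 0.0204 and 0.0485 and the batch 2 libraries between -0.0405 and -0.0039. Each library was therefore corrected for length before the fit, after which the medians of the bins lay between -0.0105 and 0.0011. Families of short or long transcripts moved accordingly. The cytosolic ribosomal proteins (80 tested) had a median of 0.0424 before and -0.0175 after the correction, complex I of the respiratory chain (45 tested) 0.0743 and 0.0230, ATP synthase (18 tested) 0.0664 and 0.0041, and the long-transcript ubiquitin-specific proteases (41 tested) -0.0751 and -0.0157.

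**Figure D1:**
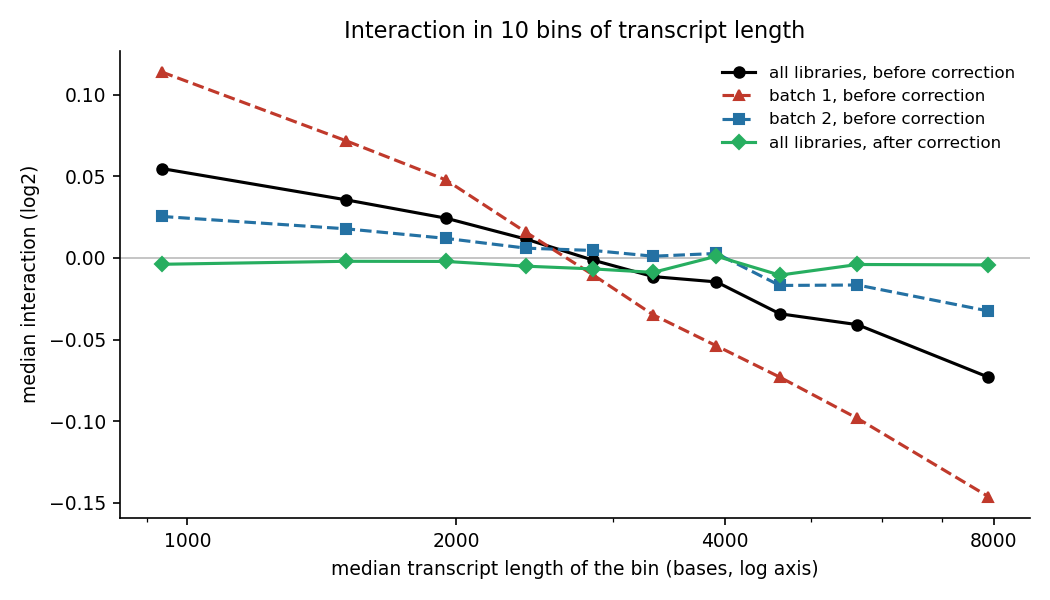
Median interaction (log2, vertical axis) in 10 equal bins of genes by transcript length (bases, log axis), before correction for all libraries and for each batch, and after correction. The uncorrected median went from 0.0548 in the shortest bin to -0.0731 in the longest, the batch 1 line is the steepest, and the corrected line stays near 0.

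Nfkbie (NM_008690, chromosome 17, 45555700 to 45563168), which encodes the NF-kB inhibitor IkB-epsilon, was induced less by TNFa when BMP4 was present. In such bulk libraries a change in the share of responding cells and a change of RNA per cell cannot be told apart. Its deposited log2 levels were 8.42, 7.83 and 7.72 in untreated libraries 1 to 3, 12.15, 11.47 and 11.48 with TNFa, 8.58, 7.94 and 7.94 with BMP4, and 11.79, 11.19 and 11.14 with both. In each batch the library with both factors was below the TNFa libraries of that batch, although the groups overlap when batches are pooled. TNFa raised it by 3.71 ± 0.05 (log2 ± SE) without BMP4 and by 3.20 ± 0.05 with it. The combined effect of 3.36 compared with an additive sum of 3.87, an interaction of -0.51 ± 0.07 (95% confidence interval -0.66 to -0.36, limma adjusted p = 0.0106), with -0.56 in batch 1 and -0.48 in batch 2. BMP4 raised Nfkbie by 0.16 ± 0.05 alone (limma adjusted p = 0.039), and its effect was -0.35 ± 0.05 beside TNFa (limma adjusted p = 0.000118). The call did not hold when any 1 of the 3 TNFa libraries was left out (limma adjusted p 0.0963, 0.0644 and 0.0718 without replicates 1, 2 and 3), while the estimate stayed between -0.54 and -0.48 over all 12 omissions. On the linear scale additivity means the sum of the increments. There the value, the log2 ratio of the level with both factors to the level that this sum gives, was -0.36. A separate limma fit of linear values divided by the gene mean did not call Nfkbie (limma adjusted p = 0.999). That p does not test the -0.36 itself.

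Pdgfb (NM_011057, chromosome 15, 79995865 to 80014977), which encodes the B chain of platelet-derived growth factor, a mitogen for mesenchymal cells, was the gene called above additivity. Its deposited log2 levels were 6.66, 7.14 and 7.24 in untreated libraries, 7.14, 7.68 and 7.70 with TNFa, 5.85, 6.61 and 6.65 with BMP4, and 7.92, 7.93 and 7.77 with both. The 3 libraries with both factors were above the others, and the 3 with BMP4 alone were below all others. TNFa raised it by 0.48 ± 0.12 and BMP4 lowered it, with an effect of -0.65 ± 0.12, whereas together they gave 0.84 against an additive sum of -0.17. The interaction was 1.02 ± 0.17 (95% confidence interval 0.66 to 1.37, limma adjusted p = 0.0472). It was 1.60 in batch 1 and 0.73 in batch 2. Of the 12 omissions of 1 library, those of TNFa+BMP4 replicate 1 and replicate 3 kept the call (limma adjusted p 0.0233 and 0.0189) and the others did not, with adjusted p up to 0.24 without TNFa replicate 1 and estimates from 0.79 to 1.15.

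**Figure D2:**
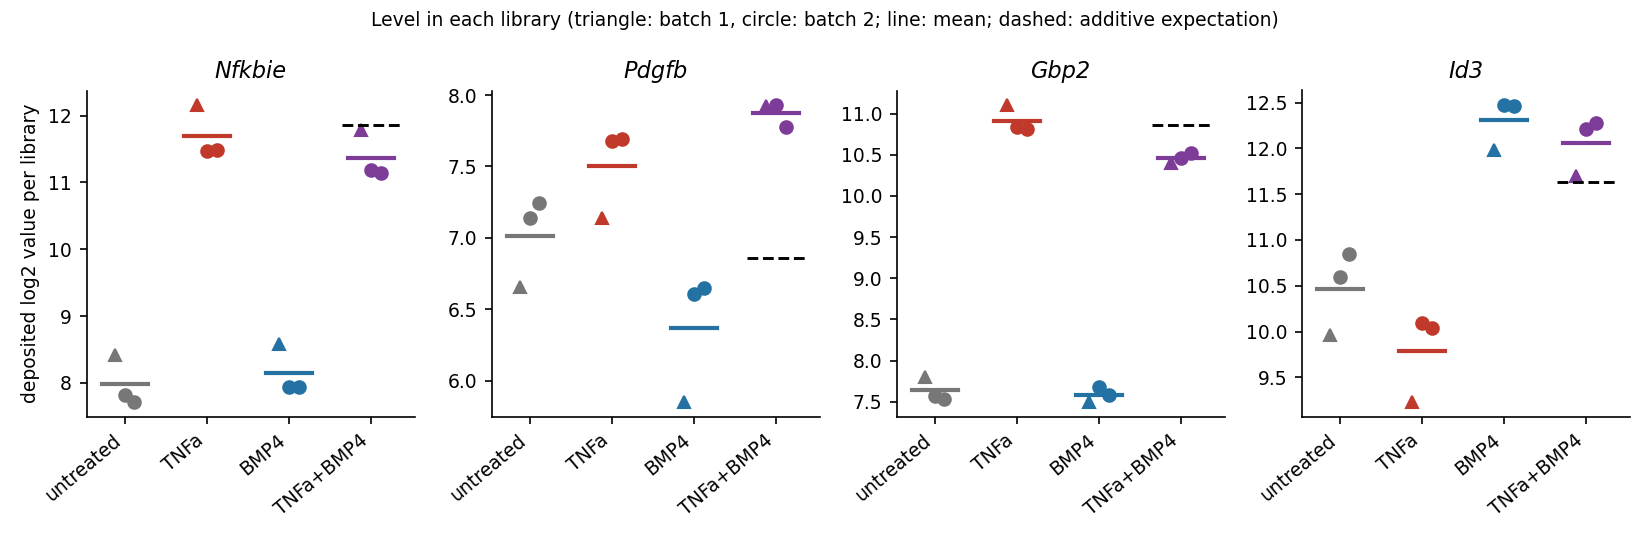
Deposited log2 level of Nfkbie, Pdgfb, Gbp2 and Id3 in each of the 12 libraries by treatment group (triangles batch 1, circles batch 2, solid lines group means over 3 libraries); the dashed line is the level that additive effects would give with TNFa+BMP4. Nfkbie and Gbp2 with both factors lie below the dashed line on average, and Pdgfb and Id3 lie above it.

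Of 85 gene lists read, 8 are described in full. The interferon-inducible GTPases, the antiviral interferon-stimulated genes, the chemokines and a list of small nucleolar RNA host genes with Malat1 and Neat1 had at least 4 tested members and a median at least 0.1 from 0. The lists for NF-kB, class I antigen presentation, BMP-Smad targets and AP-1 were taken whatever their median. Of the 74 other lists with at least 4 tested members, 70 had a median within 0.05 of 0, and the medians of those 74 ran from -0.0698 to 0.0564. No test was made on a list.

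**Figure D3:**
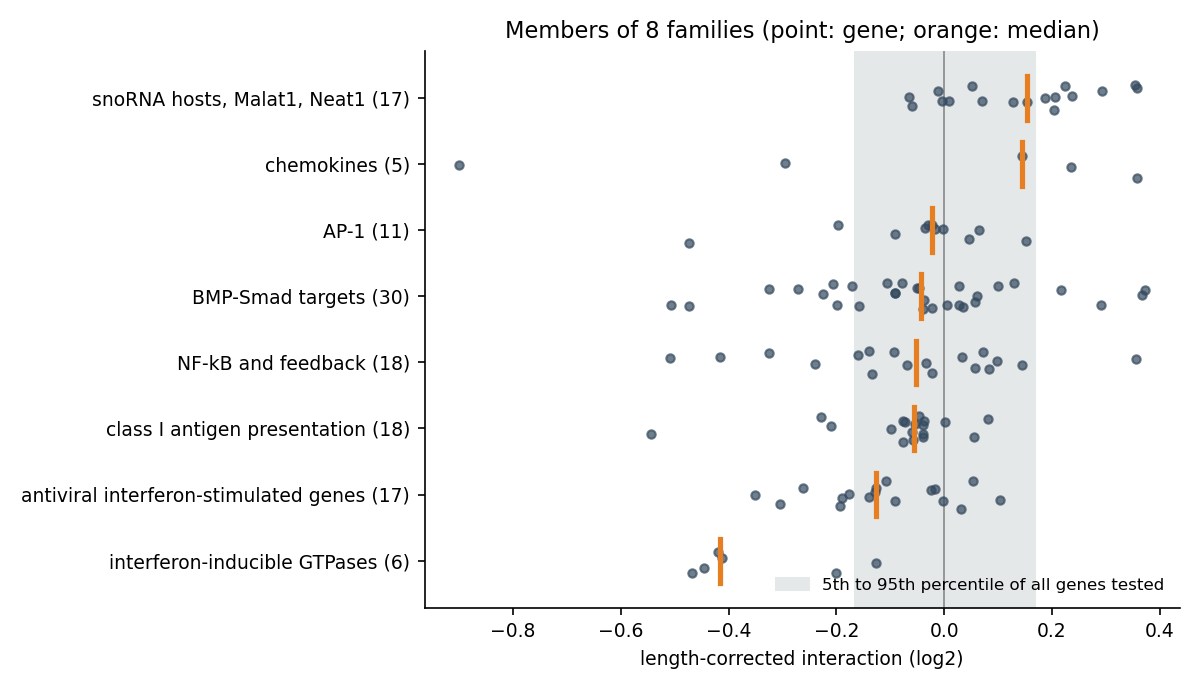
Length-corrected interaction (log2, horizontal axis) of each tested member of 8 families, with the number tested in brackets; points are genes, orange bars family medians, and the grey band the 5th to 95th percentile of all tested genes (-0.166 to 0.169). All 6 interferon-inducible GTPases lie below 0 and 4 of them lie near -0.4, outside the band.

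The interferon-inducible GTPases, the guanylate-binding proteins and immunity-related GTPases that attack intracellular pathogens, rose with TNFa, and their estimates with both factors lay below the sum of the single effects. TNFa raised all 6 tested members, with a median of 1.43 without BMP4 and 1.11 with it. BMP4 alone lowered 0 of the 6 (median -0.09), and BMP4 added to TNFa lowered 5 of the 6 (median -0.51), beside 6.78% and 6.42% of all genes. The interaction was below 0 for 6 of 6 members, in both batches for each, with a median of -0.42 beside -0.0043 for all genes. None was called after adjustment, and 4 of the 6 were below additivity at an unadjusted p under 0.05, beside 2.25% of all genes. The family median was -0.50 in batch 1 and -0.33 in batch 2. The table held 17 members of the list, of which 10 lay below the minimum level and 1 was at 0 throughout; Gbp3 (mean log2 5.95) was the nearest to it. For 3 of the 6, Gbp7, Igtp and Ifi47, the means of the untreated and of the BMP4 libraries were both under 6, so that they passed the minimum through their levels with TNFa, and the counts over the 6 support nothing by themselves. With no minimum level 15 of 16 members were below 0 and the median was -0.205. Deposited differences are compressed more at low than at high levels (a slope of 0.55 on the authors' TNFa fold changes at a mean log2 of 6 to 8, and 0.916 at 10 and above), and the GTPases span these levels between groups; the part of this in their interaction was not tested. In the authors' deposited table, differences of the fold changes gave a median of -0.31, below 0 for 5 of the 6 and above 0 for Ifi47.

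Gbp2, Irgm2, Irgm1 and Ifi47 were named after their values were seen. Gbp2, a guanylate-binding protein, had deposited log2 levels of 7.81, 7.57 and 7.54 in untreated libraries, 11.10, 10.83 and 10.81 with TNFa, 7.50, 7.68 and 7.58 with BMP4, and 10.40, 10.46 and 10.52 with both. The 3 libraries with both factors were below all 3 with TNFa alone, and the untreated and BMP4 libraries overlapped. Its interaction was -0.42 ± 0.11, with -0.42 in each batch (limma adjusted p = 0.638). Gbp7, of the same family, had levels of 5.97, 5.86 and 5.86 untreated, 7.90, 8.03 and 8.07 with TNFa, 5.94, 5.79 and 5.80 with BMP4, and 7.05, 7.69 and 7.58 with both. Its libraries with both factors were again below those with TNFa alone, most so in batch 1, and the interaction was -0.47 ± 0.16.

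Igtp, an immunity-related GTPase also called Irgm3, had deposited log2 levels of 5.94, 5.51 and 5.66 untreated, 7.46, 7.05 and 6.90 with TNFa, 5.59, 5.60 and 5.32 with BMP4, and 6.58, 6.42 and 6.55 with both, so that the libraries with both factors did not overlap those with TNFa alone. Its neighbour Irgm2 had levels of 6.91, 6.84 and 6.84 untreated, 8.65, 8.08 and 8.17 with TNFa, 6.59, 6.76 and 6.58 with BMP4, and 7.71, 7.59 and 7.66 with both, again without overlap between TNFa alone and both. The interactions were -0.45 ± 0.14 for Igtp and -0.41 ± 0.14 for Irgm2. For Irgm1, a regulatory member of the family, the estimate was -0.20 ± 0.12, and for Ifi47 it was -0.13 ± 0.12, with -0.36 in batch 1 and -0.01 in batch 2. BMP4 beside TNFa lowered Igtp, with an effect of -0.64 ± 0.10 (limma adjusted p = 0.000199), and Irgm2, with -0.65 ± 0.10 (limma adjusted p = 0.000194).

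**Figure D4:**
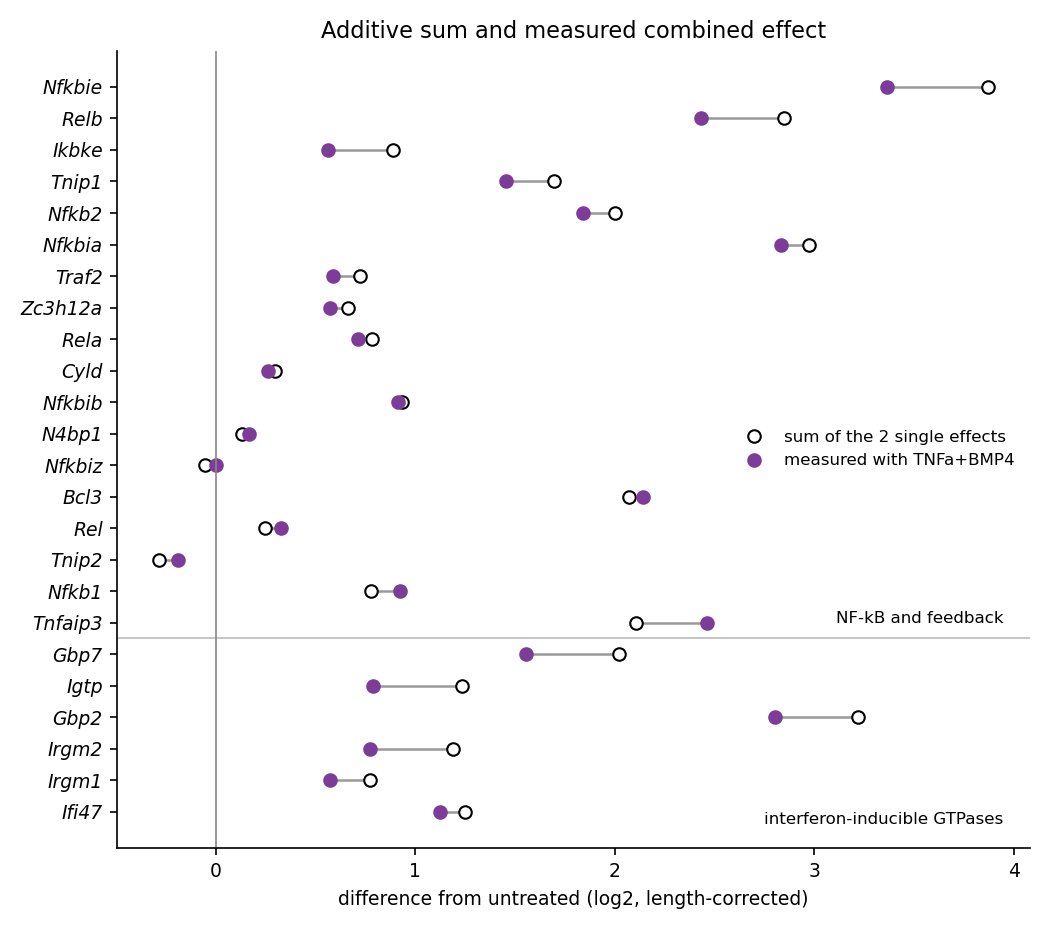
Difference from untreated (log2, horizontal axis) for the tested interferon-inducible GTPases and the NF-kB list: open circles are the sum of the TNFa and BMP4 effects, filled circles the measured effect of both. All 6 GTPases fall short of the sum. In the NF-kB list 11 of 18 genes fall short of it, Nfkbie and Relb by the most, and 7 exceed it, Tnfaip3 among them.

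The antiviral interferon-stimulated genes, effectors that detect or block viral RNA and protein, had a median below 0 as well, nearer to it. Of 17 tested members (38 in the table, 21 below the minimum), 14 rose with TNFa (9.7% of all genes did), 7 fell with BMP4 alone (6.78%) and 12 fell with BMP4 added to TNFa (6.42%). The interaction was below 0 for 14 of the 17 (52.2% of all genes), in both batches for 10 (27.6%), with a median of -0.13 (batch 1 -0.16, batch 2 -0.11). None was called and 3 were below at an unadjusted p under 0.05, beside 2.25% of all genes. The median was -0.036 without TNFa+BMP4 replicate 1, with 12 of 17 below 0, and -0.061 without untreated replicate 3. The authors' deposited table gave -0.082, with 10 of 17 below 0. Parp14, an ADP-ribosyltransferase, had deposited log2 levels of 7.46, 7.28 and 7.29 untreated, 9.48, 9.24 and 9.11 with TNFa, 7.05, 7.05 and 6.94 with BMP4, and 8.36, 8.61 and 8.65 with both. The groups did not overlap, BMP4 libraries being the lowest. Its interaction was -0.35 ± 0.13, and that of Xaf1, a pro-apoptotic antagonist of XIAP, was -0.30 ± 0.12 with -0.62 in batch 1 and -0.15 in batch 2. Eif2ak2, which encodes the RNA-sensing kinase PKR and was chosen after its value was seen, had -0.26 ± 0.09. At the other end lay Ddx58, the RNA sensor RIG-I, at 0.05 ± 0.09, and Trim25, its ubiquitin ligase, at 0.10 ± 0.08, both also chosen after their values were seen.

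In class I antigen presentation, the machinery that cuts, transports and displays peptides, 16 of 18 tested members rose with TNFa (9.7% of all genes), 2 fell with BMP4 alone (6.78%) and 6 fell with BMP4 added to TNFa (6.42%). The interaction was below 0 for 15 of the 18 (52.2% of all genes), in both batches for 9 (27.6%), but the median was -0.06 (-0.07 in batch 1, -0.09 in batch 2). None was called and 3 were below at an unadjusted p under 0.05, beside 2.25% of all genes. The authors' deposited table gave a median of -0.009 with 11 of 18 below 0, without the length correction it was 13 of 18 with -0.024, and without TNFa+BMP4 replicate 2 the median was -0.036. Psmb8, an inducible catalytic subunit of the immunoproteasome, had deposited log2 levels of 5.91, 5.62 and 5.74 untreated, 8.04, 7.10 and 7.08 with TNFa, 6.27, 5.83 and 5.48 with BMP4, and 7.45, 6.82 and 6.76 with both. Within each batch the level with both factors was below that with TNFa, and the interaction of -0.54 ± 0.17 was -1.05 in batch 1 and -0.29 in batch 2. The untreated and BMP4 means of Psmb8 were both under 6 (5.76 and 5.86), so it passed the minimum through its levels with TNFa. The peptide-loading factors Tapbpl (-0.23 ± 0.10) and Tapbp (-0.21 ± 0.10), the latter named after its value was seen, were the next lowest. The class I heavy chains H2-K1 (-0.05 ± 0.07) and H2-D1 (-0.06 ± 0.07) and their partner B2m (-0.07 ± 0.07), named after their values were seen, were within their error of additivity.

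Among subunits and inhibitors of NF-kB, 16 of 18 tested genes rose with TNFa and 17 with TNFa in the presence of BMP4, beside 9.7% and 9.24% of all genes. The interaction was below 0 for 11 (52.2% of all genes) and above for 7, with a median of -0.05. Nfkbie was called, 5 genes including it were below at an unadjusted p under 0.05 (2.25% of all genes) and 1 was above (1.78%). The sign of the median turned with single libraries: it was 0.012 without TNFa replicate 1 (8 below, 10 above) and -0.0005 without untreated replicate 1 (9 and 9), against -0.089 without TNFa+BMP4 replicate 1 (15 and 3). Relb, the subunit of the non-canonical pathway, had deposited log2 levels of 8.09, 7.98 and 8.18 untreated, 10.87, 10.50 and 10.56 with TNFa, 8.62, 8.27 and 8.21 with BMP4, and 10.82, 10.37 and 10.41 with both. BMP4 libraries were above untreated ones, but libraries with both factors were slightly below TNFa libraries within each batch, which gave -0.42 ± 0.11 (limma adjusted p = 0.638). The IKK-related kinase Ikbke (-0.33 ± 0.14), the A20-binding protein Tnip1 (-0.24 ± 0.08) and the p100 subunit gene Nfkb2 (-0.16 ± 0.07) were the others below, and all 4, Relb included, were named after their values were seen. Tnfaip3, which encodes the deubiquitinase A20, was above at 0.36 ± 0.16, with 0.83 in batch 1 and 0.12 in batch 2. Nfkbia, the classical IkB-alpha, was at -0.14 ± 0.18 with opposite signs in the batches (0.18 and -0.30), and Rela itself was at -0.07 ± 0.07. On the linear scale Tnfaip3 was at 0.017 and Nfkbia at 0.16.

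The chemokines, attractants of leukocytes, moved in no common direction. Of 33 in the table, 12 were at 0 throughout, 16 lay below the minimum and 5 were tested, with a median of 0.14 beside -0.0043 for all genes, 3 above and 2 below 0 (47.8% and 52.2% of all genes), and none called. For Ccl2, Ccl7 and Ccl5 the means of the untreated and of the BMP4 libraries were both under 6. They thus passed the minimum through their levels with TNFa, and the counts over the 5 support nothing by themselves. Ccl2, the monocyte attractant, had deposited log2 levels of 5.88, 5.84 and 5.71 untreated, 11.01, 9.78 and 9.71 with TNFa, 5.92, 5.89 and 5.91 with BMP4, and 11.51, 9.93 and 9.97 with both. The level with TNFa differed by more between batches than between TNFa alone and both. Its interaction was 0.14 ± 0.30 and turned to -0.21 without TNFa+BMP4 replicate 1. Ccl7, a related monocyte attractant, was at 0.36 ± 0.26, and Ccl5, which attracts T cells, had an estimate of -0.90 ± 0.55, the widest error among the members named. The median became -0.15 without BMP4 replicate 1, -0.11 without TNFa+BMP4 replicate 1 and -0.15 with a minimum level of 4.

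On the BMP side, 23 of 30 tested Smad targets rose with BMP4 alone and 23 with BMP4 beside TNFa, beside 7.35% and 5.73% of all genes. Their interaction had a median of -0.04 (batch 1 -0.08, batch 2 -0.004), with 18 below and 12 above 0 (52.2% and 47.8% of all genes). None was called, and 5 were below and 3 above at an unadjusted p under 0.05, beside 2.25% and 1.78% of all genes. The estimates of the inhibitory Smads, Smad6 and Smad7, had opposite signs. Id3, an inhibitor of helix-loop-helix factors, had deposited log2 levels of 9.96, 10.59 and 10.84 untreated, 9.23, 10.09 and 10.04 with TNFa, 11.98, 12.47 and 12.47 with BMP4, and 11.70, 12.21 and 12.27 with both. TNFa lowered it, with an effect of -0.66 ± 0.07 (limma adjusted p = 6.71e-07). Beside BMP4 the TNFa effect was -0.29 ± 0.07, an interaction of 0.37 ± 0.10 (limma adjusted p = 0.638). Smad6, an inhibitory Smad, was similar: its levels were 8.96, 8.99 and 9.21 untreated, 8.48, 8.68 and 8.57 with TNFa, 10.67, 10.19 and 10.22 with BMP4, and 10.31, 10.25 and 10.19 with both, for an interaction of 0.37 ± 0.14. Both were called in batch 2 fitted alone (0.40, limma adjusted p = 0.00576 for Id3, and 0.49, limma adjusted p = 0.015 for Smad6), where batch 1 gave 0.32 and 0.13. Id1, the founding Id gene, was at 0.06 ± 0.11. On the linear scale the values were -0.14 for Id3, -0.18 for Id1 and 0.058 for Smad6, so the place of Id3 above additivity belongs to the log2 scale.

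Other BMP targets lay below the sum. Smad7, the other inhibitory Smad, had deposited log2 levels of 7.95, 8.07 and 8.13 untreated, 8.45, 8.37 and 8.34 with TNFa, 10.37, 9.77 and 9.72 with BMP4, and 10.22, 9.82 and 9.79 with both. TNFa raised it in the absence of BMP4 and the levels with BMP4 alone and with both overlapped, an interaction of -0.33 ± 0.15. It was -0.16 without untreated replicate 1, -0.17 without BMP4 replicate 1 and -0.094 on the linear scale. Lfng, a glycosyltransferase that modifies Notch, was at -0.51 ± 0.16, with -0.94 in batch 1 and -0.29 in batch 2. The stress gene Gadd45b (-0.22 ± 0.11) and the osteogenic homeobox gene Dlx5 (-0.27 ± 0.12), named after their values were seen, were also below. Smad4, the common partner Smad, kept an estimate near 0 (-0.03 ± 0.07).

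Junb, an AP-1 subunit that responds to both factors, belongs to the BMP and the AP-1 lists. Its deposited log2 levels were 8.37, 8.65 and 8.95 untreated, 10.67, 10.57 and 10.77 with TNFa, 10.27, 10.33 and 10.28 with BMP4, and 11.94, 11.82 and 11.85 with both. The groups did not overlap, and each factor raised Junb in the presence of the other. The combined effect of 3.19 was less than the log2 sum of 3.67 (interaction -0.47 ± 0.13, limma adjusted p = 0.638). It was more than the sum of the linear increments (0.56 on the log2 scale), so the direction depends on which scale defines additivity. The separate fit of linear values divided by the gene mean called Junb above additivity (limma adjusted p = 0.0111), a p that does not test the 0.56 itself. The AP-1 list as a whole had a median of -0.02 over 11 tested members, 8 of them below 0 beside 52.2% of all genes, with -0.14 in batch 1 and 0.08 in batch 2, and 0.06 without untreated replicate 1 against -0.12 without TNFa+BMP4 replicate 1. Fos, the partner of Jun proteins, was at -0.20 ± 0.12.

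A list of 17 tested noncoding transcripts had the highest family median, which was above 0 in batch 1 and not in batch 2. Of these, 15 were small nucleolar RNA host genes, spliced transcripts whose introns release guide RNAs for ribosomal RNA modification, and the others were Malat1 and Neat1, nuclear RNAs that are no such hosts. Of the 17 members 13 were above 0 (47.8% of all genes), the median was 0.15, none was called and 2 were above at an unadjusted p under 0.05, beside 1.78% of all genes. The median was 0.51 in batch 1 and -0.007 in batch 2, and it was 0.050 without BMP4 replicate 1 and 0.062 without TNFa+BMP4 replicate 1. With the 15 host genes alone, chosen after the data were seen, 12 were above 0 and the medians were 0.15 over both batches, 0.51 in batch 1 and -0.007 in batch 2. The 17 transcripts are short (median length 739 bases), and before the length correction the median was 0.23. Snhg20 had deposited log2 levels of 7.08, 7.86 and 7.84 untreated, 6.57, 8.01 and 7.99 with TNFa, 6.50, 7.62 and 7.66 with BMP4, and 7.08, 7.96 and 7.83 with both. Batch 1 levels were the lowest of each group. Its interaction of 0.36 ± 0.15 was 0.93 in batch 1 and 0.07 in batch 2, and that of Snhg4 (0.35 ± 0.15) was 0.83 and 0.12. Before the correction BMP4 replicate 1 was also the library with the steepest length dependence (0.0865), and TNFa+BMP4 replicate 1 had the least steep of batch 1 (0.0204). Whether length bears on the median of this list was not tested.

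**Figure D5:**
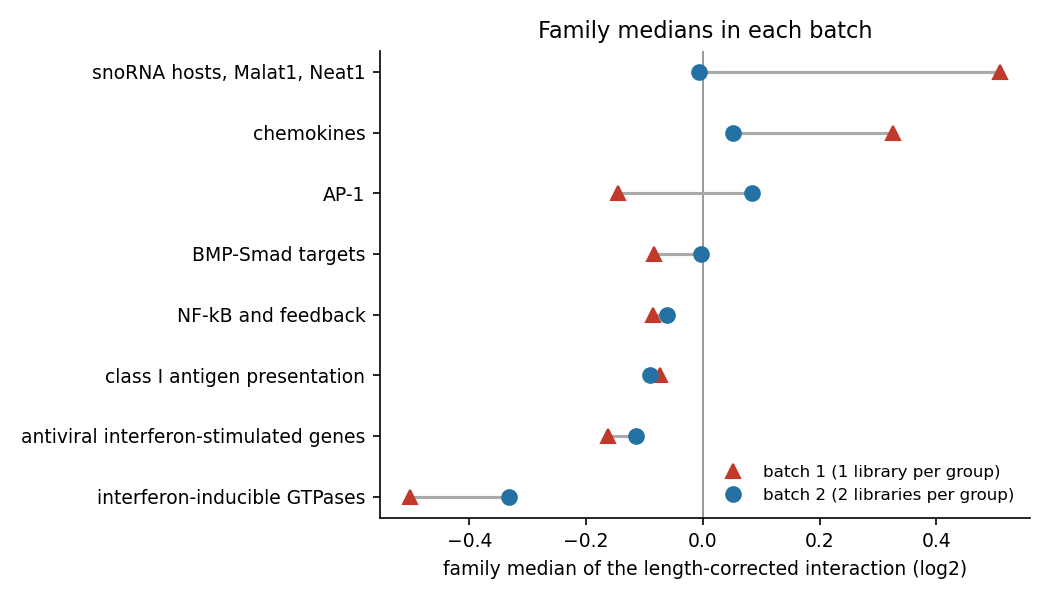
Family median of the length-corrected interaction (log2, horizontal axis) in batch 1 (triangles, 1 library per group) and in batch 2 (circles, 2 libraries per group). The interferon-inducible GTPases are below 0 in both (-0.50 and -0.33), whereas the list of small nucleolar RNA (snoRNA) hosts with Malat1 and Neat1 is at 0.51 in batch 1 and -0.007 in batch 2.

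Outside those lists, some genes named after their values were seen had large estimates that were not called. The secreted protein gene Tafa5 was lowered by TNFa alone (-0.96 ± 0.07) and raised by BMP4 (0.51 ± 0.07), and both gave 0.09 against a sum of -0.45, an interaction of 0.54 ± 0.09 (limma adjusted p = 0.0606). Papss2, which makes the sulfate donor for cartilage and bone matrix, was raised by each factor (0.64 ± 0.05 and 0.43 ± 0.05) but by 0.71 with both, an interaction of -0.35 ± 0.07 (limma adjusted p = 0.0848). Rgs4, a regulator of G protein signalling, followed the same pattern, with 2.08 measured against a sum of 2.73 (-0.64 ± 0.12, limma adjusted p = 0.106). On the linear scale Papss2 stayed below additivity (-0.21), Tafa5 stayed above it (0.18) and Rgs4 was at 0.028, so the place of Rgs4 below additivity belongs to the log2 scale. TNFa raised the complement component C3 by 3.73 ± 0.15 and the innate signalling kinase gene Ripk2 by 1.55 ± 0.07, and neither was called for BMP4 alone. Their interactions were -0.90 ± 0.22 and -0.47 ± 0.10 (limma adjusted p 0.443 and 0.287). For C3 the batches gave -0.96 and -0.88, and for Ripk2 they gave -0.49 and -0.45. The untreated and BMP4 means of C3 were both under 6 (5.60 and 5.68), so it passed the minimum through its levels with TNFa.

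The list of secreted growth factors and their receptors had 27 tested genes, Pdgfb among them, and no common direction. Of these, 16 were above 0 and 11 below (47.8% and 52.2% of all genes). In both batches 11 were above and 10 below (24.0% and 27.6%). At an unadjusted p under 0.05, 7 including Pdgfb were above additivity and 2 below, beside 1.78% and 2.25% of all genes. The median was 0.06, with -0.018 in batch 1 and 0.041 in batch 2. Besides Pdgfb, those above included the angiogenic factor Vegfa (0.43 ± 0.18, 0.88 in batch 1 and 0.21 in batch 2) and the fibroblast growth factor Fgf7 (0.37 ± 0.17), and those below were the neuregulin gene Nrg1 (-0.42 ± 0.12) and the receptor Fgfr3 (-0.39 ± 0.15). In the list of immediate-early and short-lived transcripts, 20 of 27 tested genes were below 0 (52.2% of all genes) and 6 were below at an unadjusted p under 0.05 (2.25%), with a median of -0.07 (-0.21 in batch 1, -0.053 in batch 2). Egr1, a zinc finger factor induced by growth signals, was at -0.41 ± 0.10 and the kinase gene Sgk1 at -0.27 ± 0.08. Of the death-signalling genes, the receptor Fas was at -0.20 ± 0.14, with levels of 8.42, 8.54 and 8.52 with TNFa and 8.39, 8.10 and 8.07 with both, and the kinase Ripk1 was at 0.06 ± 0.08. The genes of this paragraph other than Pdgfb, Fas and Ripk1 were named after their values were seen. The growth factor list and the immediate-early list did not meet the rule for a full description and were also picked after their values were seen.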

How the data were processed

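RNA from 12 MC3T3-E1 libraries was sequenced as 150 bp paired ends. Trim Galore, HISAT2, HOMER and the mm10 build are listed, without versions, in the submitters' processing notes. Per the file headers, HOMER output was condensed to 1 transcript per gene. The library columns are log2 values as deposited by the authors, taken here as comparable between libraries apart from the length trend. Their transformation is not named, so the depth behind a value is known only from the tag totals per library. For each pair of groups the deposited table also holds the log2 fold change, p-value and adjusted p-value that the authors computed. Deposited differences are compressed at low levels: their slope on the authors' TNFa fold change was 0.55 for mean log2 of 6 to 8, 0.795 for 8 to 10 and 0.916 above.

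Each library minus the gene mean was regressed on log2 length (lowess, span 0.5, 3 iterations) and the curve was subtracted. The fit to the corrected values used limma 3.58.1 under R 4.3.3 (4 groups, additive batch term, variance trend, 7 residual degrees of freedom, two-sided). Calls were made below an adjusted p of 0.05 (Benjamini-Hochberg over 10360 genes). Levels in the text are as deposited, and differences are after the length correction. The steps were tried on simulated data with planted interactions larger than nearly all of those estimated here. That run therefore does not show how well smaller interactions are found. Promoters came from a RefSeq table (GRCm38.p6, Python 3.11.15).

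Named genes are the called genes, in each described family its called members or else the 2 with the largest absolute interaction, and 12 fixed genes; others are marked as named after their values were seen. The members and lists were chosen with earlier results of these data known. Alternatives covered the length correction, minimum level, normalization, variance model, batch, scale of additivity and single omitted libraries.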

Additional observations from a re-analysis of the deposited data

Results flagged for a closer look

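Nfkbie and Pdgfb were picked out because the effect of TNFa differed between cells without and with BMP4 by the test of that difference (limma, adjusted over 10360 genes). The interaction was -0.509 for Nfkbie, below 0 in both batches, and 1.02 for Pdgfb, above 0 in both batches.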

How the results depend on the processing

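The count of 2 called genes (1 above, 1 below) became 3 (2 and 1) without a length correction or with a straight line on log2 length, where Tafa5 was added. It became 1 (0 and 1, Nfkbie) with a further correction on level, no minimum, quantile normalization or robust variances. With a minimum of 8 it was also 1 (Nfkbie), but there Pdgfb, with a mean log2 of 7.19, was not tested. The count became 0 with no batch term (0 above and 0 below), where 68 genes had an unadjusted p under 0.05 in limma. Batch 2 fitted alone gave 15 (10 and 5). Leaving out 1 library at a time gave 0 to 3 in all, 0 to 2 above and 0 to 1 below. With an arm reduced to 1 library in a batch, its spread is assumed to equal that of the others. Without a variance trend the genes called were Nfkbie and Tafa5. The separate fit of linear values divided by the gene mean called Junb above and Rasgef1a below.

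Replicates 2 and 3 of batch 2 carried the same numbers in each group; correlations of their differences between groups ran from 0.0258 to 0.165 and were not all over 0.1, so the numbers were not taken as pairs. A replicate block left 1 call (0 above and 1 below), with adjusted p 0.017 for Nfkbie and 0.102 for Pdgfb in limma.

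The interferon-inducible GTPase median stayed below 0 under each alternative run and was -0.205 with no minimum level. The antiviral median was -0.226 on the linear scale and ran from -0.191 to -0.036 over omitted libraries. The AP-1 median was 0.0878 in batch 2 fitted alone and -0.145 in batch 1, and ran from -0.116 to 0.0626 over omitted libraries. The chemokine median was -0.150 with a minimum of 4 and -0.313 from the authors' deposited fold changes, and ran from -0.150 to 0.278 over omitted libraries. The median of the list of small nucleolar RNA hosts with Malat1 and Neat1 was -0.00555 in batch 2 fitted alone and 0.510 in batch 1, an alternative added after the data were seen. The Junb interaction was 0.564 on the linear scale. The causes of these shifts were not tested. Deposited differences are compressed more at low levels than at high ones, which could shift an interaction in either direction where a gene spans those levels; its part in the results was not tested.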

Other observations

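In batch 2 fitted alone, 15 genes were called by limma, Nfkbie and Pdgfb among them. The ribosomal RNA precursor gene Rn45s was at 0.905 (limma adjusted p = 3.5e-11) and the mitochondrial leucyl-tRNA synthetase gene Lars2 at 0.762 (limma adjusted p = 6.05e-05), where batch 1 gave -0.188 and -0.275. In both genes the direction differed between batches, and the fit over all libraries gave limma adjusted p = 0.999. Deposited levels of Rn45s were 14.2 to 14.7 in batch 1 and 11.9 to 12.9 in batch 2. Those of Lars2 were 10.6 to 11.6 and 8.7 to 9.5. Whether ribosomal RNA left in these polyA libraries bears on either value was not tested. Timp1, an inhibitor of matrix metalloproteinases, was at 0.321 in batch 2 and 0.319 in batch 1. Flnc, an actin crosslinker, was at 0.338 and 0.310. Atoh8, a helix-loop-helix factor of the BMP list, was at 0.483 in batch 2 and -0.0962 in batch 1, and Ltbp2, a matrix protein, was at 0.450 and 0.0448. These genes were named after their values were seen.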
